A study of Homo sapiens with 102 samples.

Results

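Abundant structural noncoding RNAs were followed through a droplet drug screen. The group held 7 listed genes: 7SK (ENSG00000202198), ENSG00000277105, RN7SL1, RN7SL2, RMRP, MALAT1 and NEAT1. Of these, 5 had a row in a table of 24965 genes and 2, RN7SL1 and RMRP, had none. The members were chosen by their levels in separate DMSO controls against in-screen libraries and over the ordered drug pairs, so both patterns are given as descriptions without a test. The fits of drug, position and screen drew on the same in-screen levels, so a member's p-value from them is not independent of the choice and nothing is supported with it.

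The libraries came from Combi-Seq, in which single cells are enclosed in droplets with a pair of drugs and a pair of barcode fragments, and the joined barcode primes reverse transcription. The cells were K562, an established myelogenous leukemia line with the BCR-ABL fusion gene, and all groups were incubated for 12 h. Each of 2 drug sources carried DMSO (the solvent), Imatinib (a BCR-ABL kinase inhibitor), Trametinib (a MEK inhibitor) or YM115 (spelled as in the labels; the study writes YM155, a suppressor of survivin expression). The resulting 16 ordered pairs were run 3 times in a first screen (dT) and 3 times in a second screen with exchanged barcode roles (Bio), giving 48 in-screen libraries per screen, beside 3 separate DMSO controls per screen. All samples share the one cell line, and each library sums many cells, so a lower level can come from fewer cells of a kind or from less RNA per cell, which cannot be told apart.

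7SK is the scaffold of a small nuclear particle that, with HEXIM, LARP7 and MEPCE proteins, holds the elongation kinase P-TEFb inactive. The 7SL RNAs RN7SL1 and RN7SL2 form the core of the signal recognition particle, which directs nascent secreted proteins to the endoplasmic reticulum, and RMRP is the RNA of RNase MRP, an enzyme of ribosomal RNA processing. MALAT1 and NEAT1 are long nuclear transcripts, the former enriched in splicing speckles and the latter the scaffold of paraspeckles. The small RNAs are made by RNA polymerase III and lack a poly(A) tail, while the long ones are polymerase II products.

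The primers of this assay end in an anchored run of T, so the longest run of A was located in 4 of the transcripts, from the GENCODE release 29 sequences on GRCh38. The stretches below are shown because they hold the longest run to which such a primer could pair, and 60 bases around each run are printed with the run in capitals. 7SK lies at chr6:52995620-52995950 on the plus strand (stretch chr6:52995817-52995876). RMRP lies at chr9:35657751-35658018 on the minus strand (stretch chr9:35657917-35657976). The MALAT1 gene covers chr11:65497688-65506516 and the NEAT1 gene chr11:65422774-65445540, both on the plus strand and both annotated as lincRNA, with stretches at chr11:65506075-65506134 and chr11:65440824-65440883.
7SK: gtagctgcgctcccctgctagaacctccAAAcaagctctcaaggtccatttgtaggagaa
RMRP: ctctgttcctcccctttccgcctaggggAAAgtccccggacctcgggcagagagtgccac
MALAT1: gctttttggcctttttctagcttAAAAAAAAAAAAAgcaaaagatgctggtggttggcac
NEAT1: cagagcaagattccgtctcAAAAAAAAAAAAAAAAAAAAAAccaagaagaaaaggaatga
The longest run had 3 bases in 7SK (331 bases long), 3 in RMRP (268 bases), 13 in MALAT1 (8708 bases) and 22 in NEAT1 (22743 bases). The run of MALAT1 is its known A-rich tract, which ends the processed transcript just ahead of the tRNA-like mascRNA. A run of 8 A, on the sense strand, was present in 4.0% of 12395 transcripts of 250 to 400 bases and in 56.25% of 9615 transcripts of at least 5000 bases, so its absence from 7SK and RMRP and its presence in MALAT1 and NEAT1 are each the common state at that length.

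Near copies of a transcript bear on which row a read is counted in. Of the 282 windows of 50 bases in 7SK, 216 (76.6%) were found unchanged in transcripts of 13 other genes, leaving out RN7SK, a second entry at the same position that had no row. For RMRP, with a further annotated entry likewise left out, it was 0 of 219 windows. MALAT1 shared 0.62% and NEAT1 1.56% of their windows with other genes. Levels of 7SK are therefore uncertain where the counting could split reads among copies or leave out reads that match several. The same limit holds for RN7SL2, a member of a family with 91 rows. ENSG00000277105 was not among the genes of GENCODE release 29 and no name was paired with it, so neither its sequence nor its class could be checked, and it is called by its identifier.

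Depth was the sum of counts of a library, from 127042 to 759756 in the in-screen dT libraries and from 17882 to 780143 in the Bio libraries. The separate controls had 256671 to 458945 (dT) and 35742 to 89347 (Bio) counts, yet 5501 to 10361 detected genes against 438 to 5110 in-screen. Mitochondrial genes took 10.19 to 36.86% (dT) and 5.1 to 28.12% (Bio) of the separate controls' counts and at most 7.33% in-screen. Of the in-screen libraries, 48 dT and 44 Bio passed the filter of at least 1000 detected genes and at most 15% mitochondrial counts, and the 4 left out were the 3 Bio Imatinib_Imatinib libraries and Bio DMSO_Trametinib run 1. Of the 3 separate controls of each screen, 2 failed the same filter by their mitochondrial share (controls 2 and 3), and all 3 were kept in the descriptions. All 12 K562 markers had a row and their summed level was 3880.5 to 33829.8 CPM (counts scaled to 1e6 per library) in the dT separate controls and 13121.6 to 85517.5 CPM in-screen. In Bio the markers summed to 2772.6 to 18773.4 CPM in the controls and 0 to 55864.6 CPM in-screen. With YM115, 1 of 9 tested markers rose in dT and, in Bio, 1 of 6 rose and 1 fell. The markers that passed were named after their values were seen. HBG2, a fetal globin, rose in both screens (log2 change 0.58 and 0.75, adjusted p = 6.14e-06 and 0.00027). ALAS2, a heme synthesis enzyme, fell in Bio (-6.06, adjusted p = 0.034). It had a count in 12 of 44 passing Bio libraries, so that value rests on few detections. In dT the value of ALAS2 was 1.83 (SE 1.58, adjusted p = 0.673). The 10 markers of other cell types with a row summed to a median of 0 CPM in-screen in both screens, with up to 666.2 CPM in a dT and 1976.8 CPM in a Bio library. In the separate controls they summed to 56.7 to 130.4 CPM (dT) and 44.8 to 160.7 CPM (Bio), so they were not absent.

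Of the members, ENSG00000277105 separated the 2 kinds of library in both screens. In the dT separate controls it had 1352, 4522 and 830 counts, or 5186, 17618 and 1808 CPM for controls 1 to 3. In the 48 in-screen dT libraries its lowest, median and highest levels were 16.4, 88.8 and 471 CPM. All 3 controls lay above every in-screen library, the lowest control at 3.84 times the highest in-screen level. The ratio of means was 71.0 with all controls and 30.3 without control 2. With only the control of at most 15% mitochondrial counts, a setting chosen after seeing the data, it was 44.91.

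In the Bio screen the same gene had 209, 479 and 481 counts in the separate controls, or 5847, 5361 and 9664 CPM. The in-screen libraries ran from 13.4 over a median of 113 to 1593 CPM. The groups again did not overlap, with a ratio of means of 27.5. The ratio was 38.88 over passing in-screen libraries only and 166.7 against in-screen DMSO_DMSO only, while the latter reference gave 63.83 in dT. With only the Bio control of at most 15% mitochondrial counts it was 23.12. Over the genes described in each screen, those detected in 3 or more of its libraries, all 3 controls lay above all 48 in-screen libraries for 0.631% of 12837 genes in dT and 1.88% of 9153 genes in Bio, and since the gene was selected on this contrast nothing is read from that. The share of the member in the counts of all 319 rows not in GENCODE release 29 was 59.41 to 68.59% in the dT controls against 3.6 to 57.14% in-screen, without overlap, and 67.56 to 71.09% in the Bio controls against 2.02 to 83.33% in-screen, with overlap.

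7SK had a higher mean in the separate controls of both screens, with overlap. Its counts were 52, 47 and 63 in the dT controls, or 199, 183 and 137 CPM (Wilson 95% interval of the lowest 107 to 176 CPM, counting error only), against 0, 13.6 and 220 CPM as the lowest, median and highest in-screen level. The Bio controls had 7, 11 and 8 counts, or 196, 123 and 161 CPM, against 0, 9.27 and 699.8 CPM in-screen. The groups overlapped, since the lowest control was exceeded by 3 of 48 in-screen libraries in dT and 6 of 48 in Bio, and the ratios of means were 4.76 and 3.08 (14.73 and 11.04 against in-screen DMSO_DMSO only).

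The 2 long RNAs overlapped more widely with the in-screen libraries. MALAT1 had 609.9, 1321 and 499 CPM in the dT controls and 783, 929 and 1366 CPM in the Bio controls. The in-screen range was 0 to 2051 CPM with a median of 526 in dT and 0 to 3648 CPM with a median of 212 in Bio. In dT, 26 of 48 in-screen libraries exceeded the lowest control and 3 the highest, and the ratio of means (1.41) fell to 0.968 without control 2 and to 0.492 when only in-screen DMSO_DMSO was the reference. In Bio the ratio was 1.89, and 3.619 against DMSO_DMSO only.

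NEAT1 had 376, 1769 and 142 CPM in the dT controls against 0 to 810.2 CPM in-screen (median 131), and 532, 1701 and 2190.0 CPM in the Bio controls against 0 to 1562 CPM (median 89.8). The highest control of each screen lay above every in-screen library, while 21 (dT) and 9 (Bio) of 48 in-screen libraries lay above the lowest. Its ratios of means were 3.53 and 5.41, or 2.153 and 9.174 against DMSO_DMSO only. The dT ratio was 1.2 without control 2, and the Bio ratio 1.951 with only the control of at most 15% mitochondrial counts. The same dT control 2 was the highest for ENSG00000277105, MALAT1 and NEAT1 but not for 7SK.

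The RN7SL2 row held 2 counts in the whole table, both in Bio YM115_Imatinib run 2 (5.55 CPM, interval 1.52 to 20.2). How much of the RNA was read is not shown if reads matching several family rows were split or left out. The row was at 0 in all 6 separate controls, which allows up to 6.54 to 83.9 CPM there (3 counts). The rows of related sequences held more: 91 rows with an RN7SL symbol summed to 71.9 ± 56.1 CPM (SD, n = 3) in the dT controls and 76.0 ± 144 CPM (SD, n = 48) in-screen, and to 187 ± 91.5 and 157 ± 825 CPM in Bio. The in-screen leaders were RN7SL105P (dT) and RN7SL832P (Bio). The 57 rows with an RN7SK symbol summed to 93.7 ± 76.3 CPM in the dT controls against 26.3 ± 100.2 in-screen, and to 90.5 ± 27.3 against 5.72 ± 12.97 CPM in Bio.

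**Figure D1:**
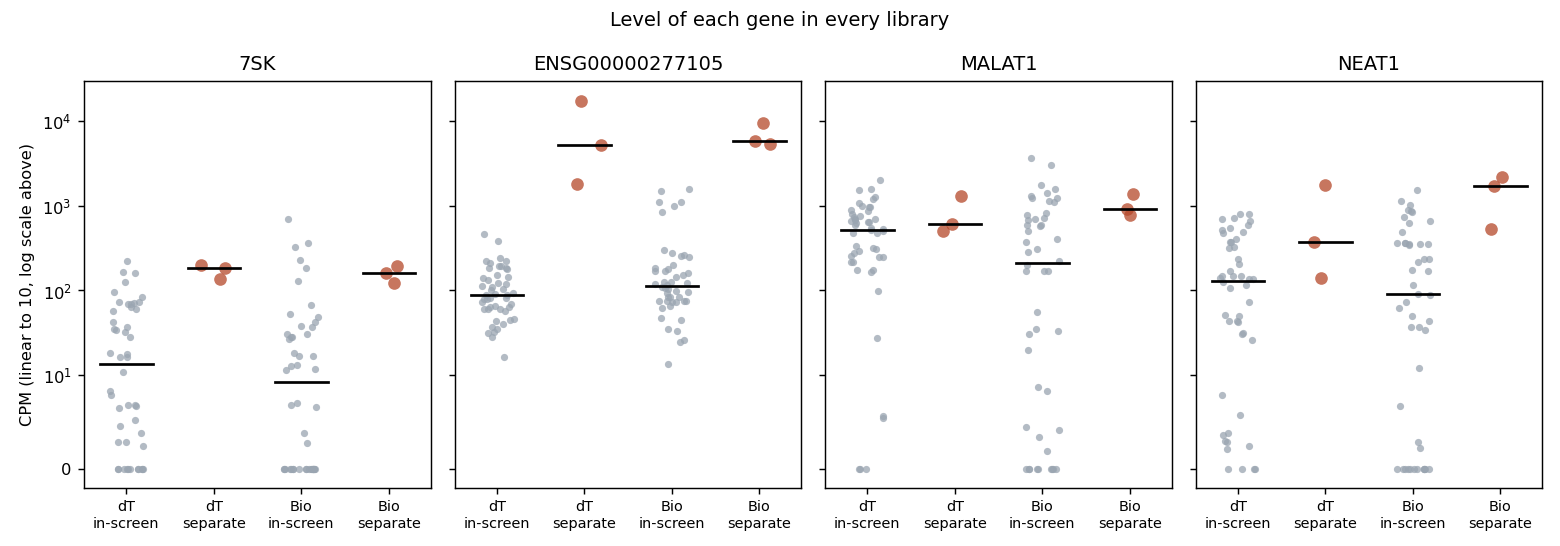
CPM of 4 genes (panels) in every library, with in-screen libraries in grey, separate DMSO controls in red and the median of each group as a bar, on an axis that is linear to 10 and logarithmic above. The 3 separate controls of ENSG00000277105 stand above all 48 in-screen libraries in each screen, and those of the other 3 genes overlap with them.

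The separate and in-screen libraries also differed for most other genes, which sets the scale for these values. On the log2 CPM scale (prior count 2), 75.42% of 12837 genes in dT and 76.47% of 9153 genes in Bio had a higher mean in the separate controls, with median differences of 0.62 and 1.04. The share of mitochondrial ribosomal RNA was 3.27 to 35.8% of counts in the dT controls against 0.0394 to 1.18% in-screen. In the Bio controls it was 1.23 to 3.22% against 0 to 1.85%. The number of detected genes and the mitochondrial share differed with the kind of library, whereas total counts of the dT controls lay within the in-screen range. In Bio the controls had 35742 to 89347 counts against an in-screen median of 231438.5. The part of these measures in the members' levels was not tested.

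Protein partners of the RNAs were described in the same way. For the 8 proteins of the signal recognition particle and its receptor, 4 of 7 described genes were higher in the dT controls (median log2 difference 0.33) and 6 of 6 in Bio (1.34). The 7SK particle had 7 of 7 (1.15) and 4 of 6 (0.31), and for RNase MRP and P 8 of 9 (0.48) and 4 of 5 (0.96). Paraspeckle proteins were higher in 9 of 10 (1.66) and 8 of 8 (2.80), and speckle proteins in 6 of 7 (1.44) and 6 of 7 (2.04). Among 28 other long noncoding RNAs, 22 of 25 (1.495) and 15 of 18 (1.02) described genes were higher in the controls. SNHG32 and SNHG1, hosts of small nucleolar RNAs and the highest of that list in-screen, were lower there: SNHG32 had 360 ± 170 CPM (SD, n = 3) in the dT controls and 3076 ± 1815 CPM (SD, n = 48) in-screen, and SNHG1 had 200.2 ± 36.8 against 483 ± 438 CPM. Replication-dependent histones, whose messages carry no poly(A) tail, were higher in 31 of 37 (1.06) and 28 of 30 (1.34). The 10 other small structural RNAs with a row summed to a median of 0 CPM in-screen in both screens, with up to 36.9 CPM in a dT and 4898.4 CPM in a Bio library. The highest by their dT mean, VTRNA1-2 and VTRNA1-3, both vault RNAs, had 0.84 ± 5.34 and 0.63 ± 2.85 CPM in the in-screen dT libraries.

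Over the drug pairs, ENSG00000277105 had a count in every library and was highest, among pairs whose libraries passed the filter, in YM115_YM115, where both sources carried YM115. In the dT screen the 3 runs of that pair had 103, 155 and 133 counts, or 223, 383 and 471 CPM. The pair next in order was Trametinib_DMSO at 181 ± 41.6 CPM (SD, n = 3), against 359 ± 126 CPM for YM115_YM115. The lowest run of YM115_YM115 (223 CPM) lay under the highest run of another pair, Trametinib_YM115 at 245 CPM, so the pair did not stand clear in dT.

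In the Bio screen YM115_YM115 had 391, 338 and 232 counts, or 1103, 855 and 1010.1 CPM, a mean of 990 ± 125 CPM (SD, n = 3). Among pairs that passed the filter the next was Trametinib_YM115 at 272 ± 26.6 CPM, and the 3 runs lay above all other passing libraries. Such a separation was met by 0.0538% of 7440 genes in Bio and, for the dT pair, by 0.0442% of 11307 genes, and the pair was picked after its values were seen. YM115 from one source with DMSO from the other gave 102.3 ± 57.9 and 95.3 ± 31.7 CPM in dT and 109 ± 41.4 and 143 ± 58.8 CPM in Bio. DMSO_DMSO had 129 ± 76.9 CPM in dT and 41.7 ± 28.5 CPM in Bio, the latter from 3, 11 and 2 counts. The single-source libraries overlapped with DMSO_DMSO in dT, and YM115_DMSO did so in Bio (lowest run 73.6 against a highest DMSO_DMSO run of 74.7 CPM), while the runs of Bio DMSO_YM115 started at 83.4 CPM. The YM115_YM115 libraries were not shallow, with mean totals of 383093 (dT) and 326389 (Bio) counts.

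Below YM115_YM115, the next 4 pairs in dT all had Trametinib listed first, a pattern picked after the ranking was seen. Over 12 dT libraries each, first-listed means were 160 ± 58.0 (Trametinib), 148 ± 142 (YM115), 93.5 ± 48.3 (DMSO) and 60.4 ± 29.6 CPM (Imatinib). With Trametinib listed second the mean was 80.3 ± 51.0 CPM. In Bio, Trametinib listed first gave 165 ± 87.1 CPM and listed second 108 ± 43.1 CPM. The other first-listed means of passing Bio libraries were 341 ± 398 (YM115), 94.6 ± 60.4 (Imatinib) and 86.2 ± 51.7 CPM (DMSO). The Bio pairs with Trametinib listed first ranked 3, 4, 7 and 14 of 16. In the dT screen run 2 was the highest of the 3 runs in 13 of 16 pairs and run 1 in 0 of 16, with medians of 53.3, 127 and 89.9 CPM for runs 1 to 3.

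7SK was sparser and less even between runs. In dT the 3 runs of YM115_YM115 had 220, 37.1 and 163 CPM, and in Bio 699.8, 185 and 13.1 CPM. The means, 140.2 ± 93.8 and 299 ± 357 CPM (SD, n = 3), were the highest of the 16 pairs in each screen. Imatinib_Imatinib followed in dT at 116 ± 55.0 CPM, from 47, 18 and 67 counts, and the shallow Bio libraries of that pair had 0 counts of 7SK. Trametinib_DMSO was even in dT, with 30, 25 and 30 counts, but had 0, 9 and 1 in Bio. YM115_Trametinib had 0 counts of 7SK in all 6 libraries of the 2 screens, although its dT libraries averaged 473019 counts. 7SK had no count in 11 of 48 dT and 19 of 48 Bio libraries.

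**Figure D2:**
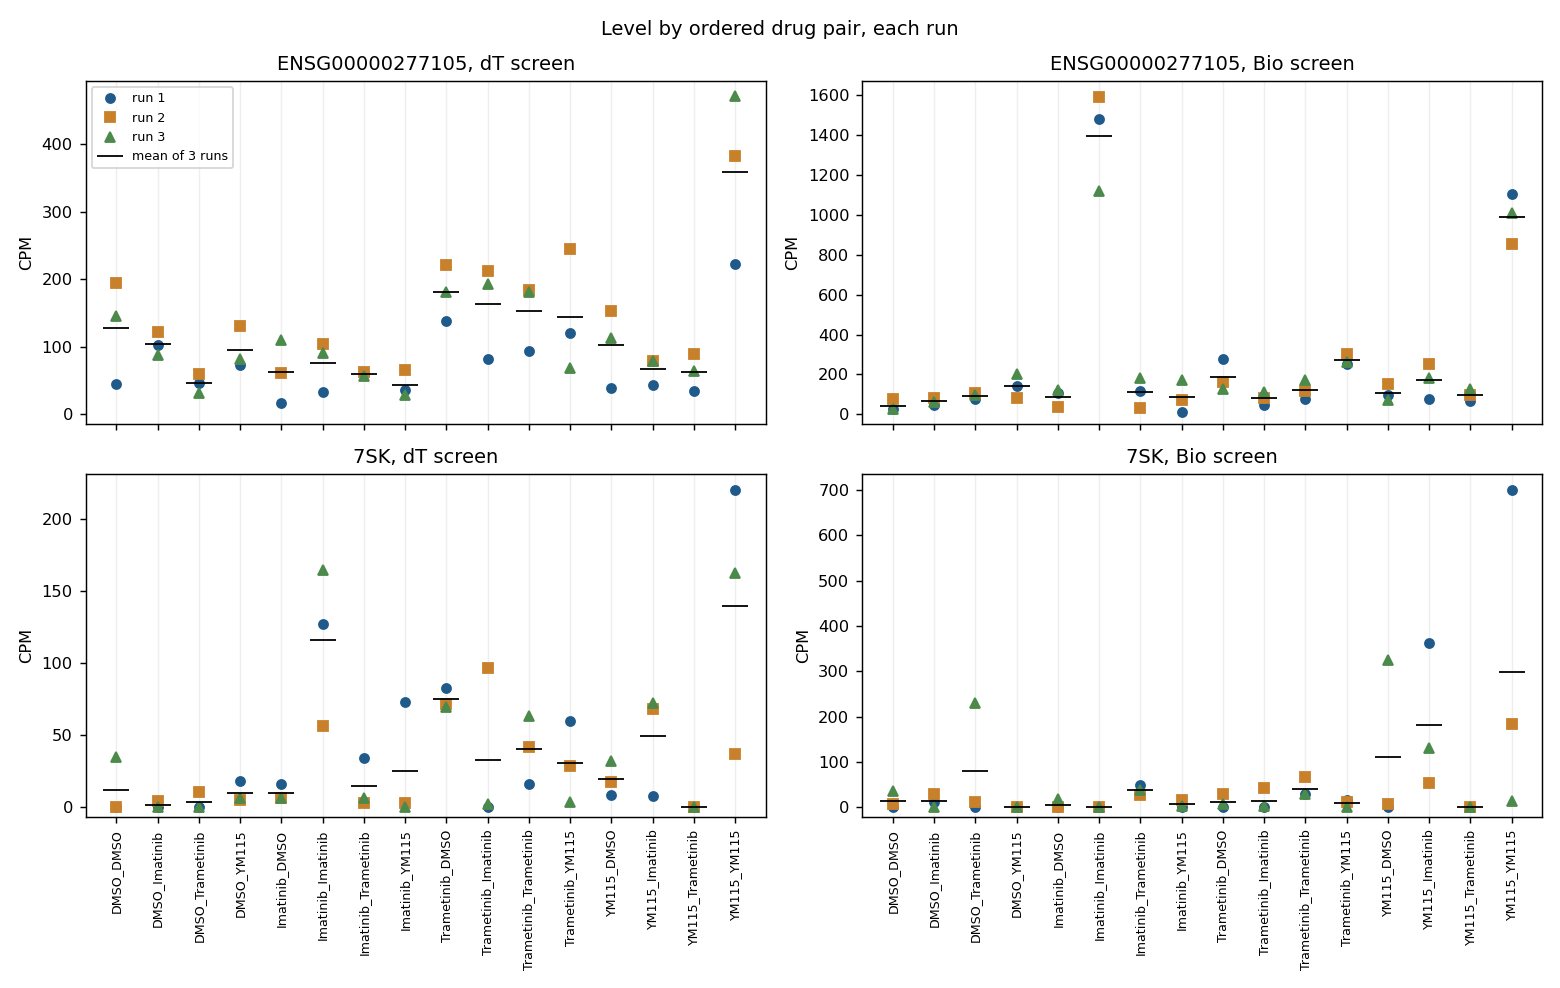
CPM of ENSG00000277105 (upper panels) and 7SK (lower panels) by ordered drug pair in the dT (left) and Bio (right) screens, with 1 symbol per run and a bar at the mean of 3 runs. ENSG00000277105 is highest in YM115_YM115 in dT and in Bio Imatinib_Imatinib and YM115_YM115, while the runs of 7SK lie far apart within pairs.

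MALAT1 differed widely among runs of one pair. In dT it was highest in DMSO_DMSO, with 370, 225 and 317 counts or 1647 ± 383 CPM (SD, n = 3), and lowest in DMSO_Imatinib, with 0, 6 and 0 counts. The reversed order of that pair, Imatinib_DMSO, had 273, 187 and 373 counts. In Bio the order did not return: DMSO_DMSO had 1, 25 and 55 counts, DMSO_Imatinib had 290, 1 and 289, and the highest pair was YM115_Trametinib with 0, 213 and 548. A run with at least 50 counts stood beside one with at most 3 counts in 3 of 16 dT pairs and 8 of 16 Bio pairs, the same as the medians of genes with a mean count within 1.5-fold (3 in dT, 8 in Bio).

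The runs of NEAT1 also lay far apart. Its highest pair in dT was DMSO_Imatinib, with 1, 160 and 217 counts (511 ± 437 CPM), and in Bio it was Trametinib_Trametinib, with 494, 267 and 11 counts (788 ± 751 CPM). The dT counts of Trametinib_Trametinib were 57, 1 and 381. Runs with at least 50 and at most 3 counts met within 11 of 16 dT pairs and 4 of 16 Bio pairs, beside medians of 7 and 8 for genes of like mean. ENSG00000277105 showed this in 0 of 16 pairs of either screen, where genes of like mean had a median of 7 pairs. Only 6 (dT) and 5 (Bio) of its pairs had a run with at least 50 counts and could show it, against 15 and 13 for MALAT1 and 14 and 10 for NEAT1. For 7SK it was 0 of the 2 such pairs in dT and 2 of the 3 in Bio.

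**Figure D3:**
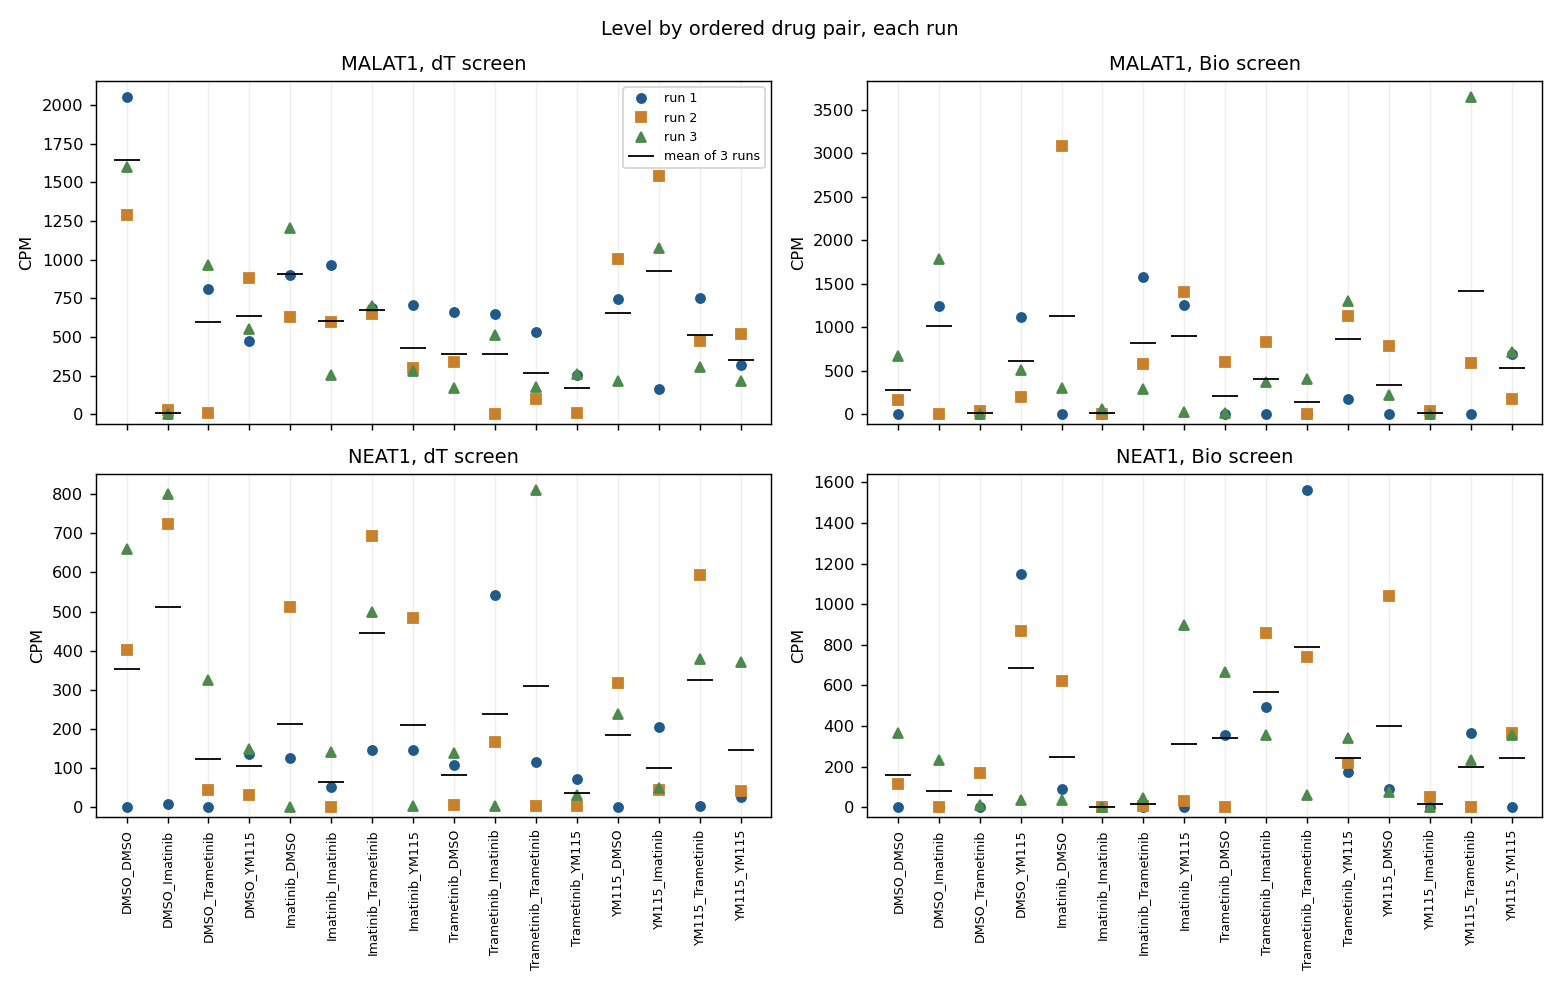
CPM of MALAT1 (upper panels) and NEAT1 (lower panels) by ordered drug pair in the dT (left) and Bio (right) screens, with 1 symbol per run and a bar at the mean of 3 runs. Runs of one pair spread from near 0 to the upper end of the axis, and the dT DMSO_DMSO runs of MALAT1 lie together between 1290.4 and 2051 CPM.

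The spread between runs set ENSG00000277105 apart from the long RNAs in value, given here as a description. Its variance within pairs, at the mean depth of the screen, was 9.14 times its mean count in dT and 5.47 times in Bio, where genes with a mean within 1.5-fold had medians of 119 (890 genes) and 272 (631 genes). 7SK had 12.0 (dT) and 63.5 (Bio) beside medians of 107 and 238. MALAT1 had 63.8 and 297 beside 132 and 279, and NEAT1 98.1 and 113 beside 123 and 283. Counts of ENSG00000277105 were found in all passing libraries of both screens, against a median of 58.3% (dT) and 38.6% (Bio) for genes of like mean.

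Mean levels over the 16 pairs did not repeat closely between the screens. Spearman's rho between the dT and Bio pair means was 0.27 for ENSG00000277105, 0.32 for 7SK, -0.20 for MALAT1 and 0.01 for NEAT1. Without Imatinib_Imatinib, whose Bio libraries failed the filter, these were 0.35, 0.50, -0.18 and -0.17 over 15 pairs. The members hardly followed each other over libraries, the highest rho being 0.37 between 7SK and ENSG00000277105 over 48 dT libraries (0.22 over 44 Bio libraries). The rank correlation of the level of 7SK with total counts was 0.30 in dT and 0.09 in Bio, and that of ENSG00000277105 with the number of detected genes 0.14 and 0.52. These correlations are descriptions over libraries that share runs and drugs.

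The fitted drug effects asked whether a drug in either position went with a change in each gene. No member reached the threshold of 0.05 for the adjusted p (Benjamini-Hochberg over all genes, quasi-likelihood F-test of edgeR) for any drug in either screen, with 4 members tested and RN7SL2 below the filter on low counts. Of 3930 genes in dT, 2.88% passed with Imatinib, 1.37% with Trametinib and 2.62% with YM115, and the shares in the same order were 2.34%, 1.94% and 2.74% of 1754 genes in Bio. Without run as a block these counts fell from 113, 54 and 103 genes to 12, 9 and 23 of 3061 in dT and from 41, 34 and 48 to 5, 5 and 12 of 1282 in Bio. The low-count filter depends on the design, so fewer genes were tested there. Beside these shares 0 of 4 is no result about the members. Unadjusted p was under 0.05 for 0 of the 44 fits of a member and term, and with DESeq2 0 of 24 drug fits passed the threshold and 2 had an unadjusted p under 0.05.

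Values of the member with the smallest p show the width of the error. ENSG00000277105 had a log2 change of -0.79 (SE 0.48, adjusted p = 0.497) with Imatinib in dT, from 82.2 ± 49.1 CPM with the drug (SD, n = 21) and 141 ± 104 CPM without it (SD, n = 27). With YM115 in Bio it had 1.14 (SE 0.77, adjusted p = 0.501), from 266 ± 314 CPM with (n = 21) and 99.1 ± 59.2 CPM without (n = 23). This value was 0.18 with the left-out Bio libraries included and 0.40 with depth as a covariate. The 3 YM115_YM115 libraries were the highest of those with the drug in Bio, and the fit held no term for that pair.

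The other smallest values belonged to the long RNAs. MALAT1 had -0.82 (SE 0.56, adjusted p = 0.631) with Trametinib and -0.38 (SE 0.56, adjusted p = 0.850) with YM115 in dT, and 1.67 (SE 1.22, adjusted p = 0.575) with Imatinib in Bio. NEAT1 had 0.37 (SE 1.21, adjusted p = 0.967) with Trametinib in Bio. For 7SK the standard errors were 1.00 to 1.15 in dT and 1.06 to 1.91 in Bio, and its widest 95% interval in dT, for Trametinib, ran from -2.94 to 1.57 on the log2 scale. A p that misses the threshold does not show that levels were equal.

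**Figure D4:**
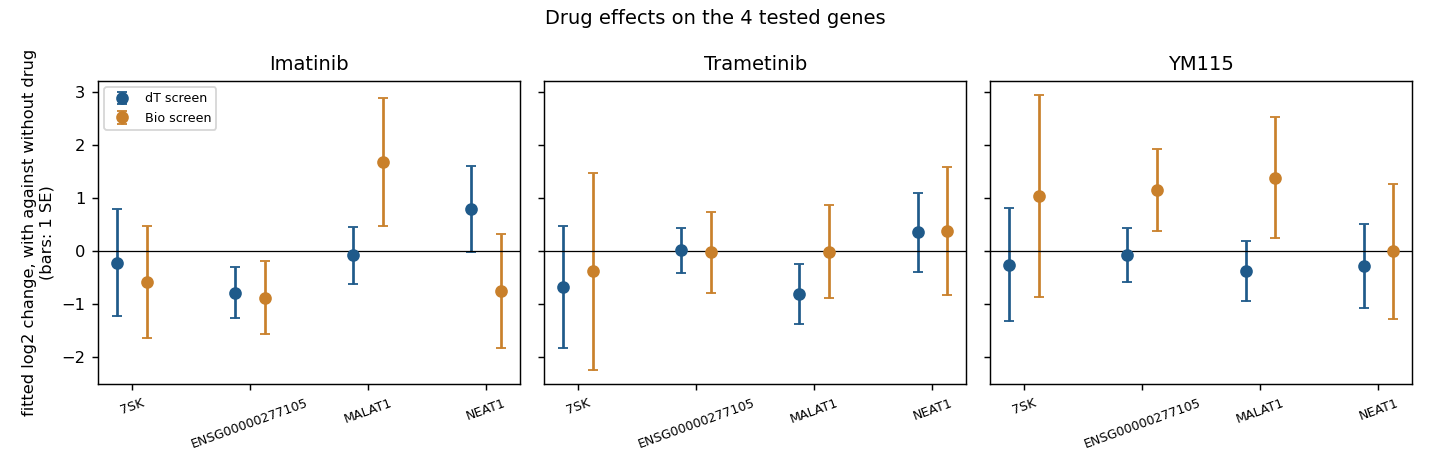
Fitted log2 change of 4 genes with against without each drug (panels) in the dT (blue) and Bio (orange) screens, with bars of 1 SE. The estimates lie between -0.89 and 1.67, and none passed an adjusted p of 0.05.

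Neither the injection position nor the screen took a member past the threshold. The study asked whether the source of a drug biases the readout, and the joint test of first-listed against second-listed position passed for 10.7% of 3930 genes in dT and 21.1% of 2112 genes in Bio. The Bio count fell whichever run was left out, from 446 genes with all runs to 104 of 1956 without run 1, 8 of 1780 without run 2 and 124 of 1830 without run 3. The part of run 2 beside that of fewer libraries was not tested. The smallest adjusted p of a member was 0.306, for 7SK in dT, where DMSO listed first had 6.75 ± 10.6 CPM and listed second 29.04 ± 30.01 CPM (SD, n = 12 each). A difference in drug effect between screens passed for 5.84% (Imatinib), 4.57% (Trametinib) and 6.59% (YM115) of 4705 genes and for 0 of 4 members. The smallest p of a member was that of MALAT1 with YM115, at -1.89 (dT minus Bio, SE 1.20, adjusted p = 0.382).

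Proteins that work with these RNAs were tested in the same fits, and few were dense enough. In the 7SK particle 2 of 7 genes were tested in each screen: CCNT1 (cyclin T1, a subunit of P-TEFb) rose with YM115 in Bio by a log2 change of 9.55 (SE 1.73, adjusted p = 0.000785), and MEPCE, the 7SK capping enzyme, did not pass for any drug. CCNT1 was detected in 8 of 21 libraries given YM115 and 1 of 23 others, so it met the low-count filter through the group where it was high. It fell below the filter, and was not tested, without run 1, without run 3 and without the block. In dT its value was -1.45 (adjusted p = 0.702), and the difference between the screens passed (-11.27, adjusted p = 0.00104). That difference draws on the Bio values by which CCNT1 was picked, so nothing is read from it. Of the RNase MRP and P proteins 2 of 11 were tested, and POP7, a subunit shared by both enzymes, rose with YM115 in Bio by 7.66 (SE 1.398, adjusted p = 0.000785). POP7 was detected in 12 of 21 libraries given the drug and 4 of 23 others, so the low-count filter favoured it through the group where it was high. In dT it had 0.52 (adjusted p = 0.904). The difference between the screens also passed (adjusted p = 0.00288), with the same limit as for CCNT1. RPP25L did not pass for any drug.

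The other lists gave fewer calls. For the signal recognition particle, 0 of 2 tested genes, SRP72 and SRPRB, passed in any of the 6 drug fits. Among paraspeckle proteins 0 of 7 (dT) and 0 of 5 (Bio) passed, SMARCA4 and NONO being the highest in-screen. Among speckle proteins 0 of 6 (dT) and 1 of 4 (Bio) passed: SRSF3, a splicing factor, fell with Trametinib (log2 change -7.08, SE 1.49, adjusted p = 0.00427) and was detected in 2 of 20 libraries given the drug and 11 of 24 others. It did not pass without run 1 (-5.12, adjusted p = 0.155) and was not tested without run 3. Its detections lay mostly in the libraries without Trametinib, so the filter favoured it through the group where it was high. SRRM1 and SON, the highest of that list, did not pass. The joint test of position passed for 0 of 2 (dT) and 1 of 2 (Bio) tested genes of the signal recognition particle, 1 of 2 and 0 of 2 of the 7SK particle, 0 of 7 and 4 of 6 paraspeckle proteins, 1 of 6 and 0 of 6 speckle proteins, and 0 of 2 in both screens for RNase MRP and P. In the drug fits 0 of 13 (dT) and 0 of 8 (Bio) other long noncoding RNAs passed. The joint test of position passed for 0 of 13 (dT) and 2 of 10 (Bio) of them, and for 1 of 21 and 1 of 10 histones. Of the histones, H2BC7 fell with YM115 in dT (log2 change -4.77, SE 1.18, adjusted p = 0.0145), 1 of 21 tested, and H2AC13 rose with YM115 in Bio by 5.59 (SE 1.14, adjusted p = 0.00253), 1 of 10, while H1-4 and H2AC8 did not pass. H2AC13 was detected in 8 of 21 libraries given YM115 and 1 of 23 others, met the filter through the former, and did not pass with DESeq2 (adjusted p = 0.452) or without the filter (0.0788). H2BC7 was detected in 4 of 21 libraries given YM115 and 13 of 27 others, so the filter favoured it through the latter. It did not pass without the filter (adjusted p = 0.118), and neither histone was tested without run 1, run 3 or the block. The fitted difference between the screens passed for H2AC13 with YM115 (-6.23, dT minus Bio, adjusted p = 0.0104), a gene not tested in dT alone. For SRSF3 with Trametinib this difference did not pass (adjusted p = 0.0959). Both differences draw on the Bio values by which the genes were picked, so nothing is read from them. The 5 called genes had a count in 9 to 17 libraries of the screen in which they passed, so the fitted log2 changes rest on few detections and their size is not a bound.

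The genes most like each member over the 48 dT libraries, by Spearman's rho of log2 CPM among 2187 genes detected in at least 50% of them, were picked for each member. For ENSG00000277105 the nearest were ENSG00000239776 (rho 0.70), ENSG00000275783 (0.59) and ENSG00000241781 (0.52), all 3 without a name and not in GENCODE release 29. Over the 44 passing Bio libraries their rho was 0.64, 0.41 and 0.60. For 7SK the nearest were ENSG00000197149 (0.52), TMEM183BP (0.51) and NFYB (0.49), with 0.14, -0.08 and -0.15 in Bio. For MALAT1 they included NOP53 (0.52) and TKT (0.49), with 0.03 and -0.09 in Bio, and for NEAT1 RPL11P5 (0.52), RPS7 (0.49) and RPL12 (0.42), with -0.03, 0.15 and 0.09. For the genes named here as like 7SK, MALAT1 or NEAT1, rho was thus at most 0.15 in the screen in which they had not been picked.

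Of the 3 identifiers, 2 also shared the pattern over kinds of library, which the likeness did not use. ENSG00000239776 had 296 CPM or more in the dT controls and at most 85.0 CPM in-screen, and 923 or more against at most 264 CPM in Bio. ENSG00000241781 had at least 464 against at most 54.4 CPM in dT and at least 548 against at most 391 CPM in Bio. ENSG00000275783 did not separate, with 78.4 CPM as the lowest dT control against up to 1013 CPM in-screen. Summed counts of ENSG00000277105 per count of ENSG00000239776 were 6.95 (dT controls), 5.55 (dT in-screen), 5.20 (Bio controls) and 5.65 (Bio in-screen). The highest dT pair of ENSG00000239776 was YM115_YM115, at 58.6 ± 23.8 CPM from 18, 21 and 24 counts. It was picked for its likeness over these same dT libraries, so this peak is not a further likeness. In Bio it had 148 ± 25.04 CPM in YM115_YM115, which ranked 2 of 16 behind the left-out Imatinib_Imatinib at 184 ± 73.3 CPM.

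**Figure D5:**
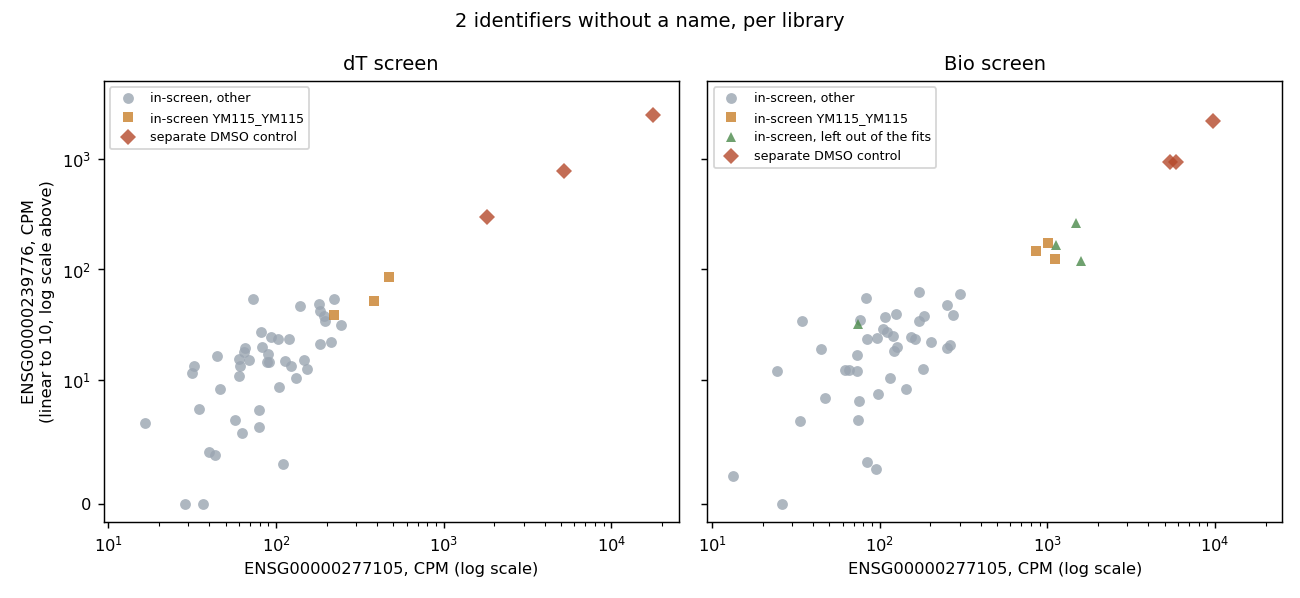
Level of ENSG00000239776 against ENSG00000277105 (CPM, log scales, the vertical axis linear to 10) in every library of the dT (left) and Bio (right) screens, with YM115_YM115, libraries left out of the fits and separate controls marked. Both rise together from the in-screen libraries over YM115_YM115 to the separate controls at the upper right.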

How the data were processed

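Each screen gave 48 in-screen RNA libraries of K562 cells and 3 DMSO controls made apart from it. Values are raw counts of reads per gene, as the authors deposited them after splitting reads by barcode. The submitters' processing notes name STAR 2.4.2a and GRCh38, and the counting step's strand setting is not given in the sources used here. The assay carries no molecular identifiers in these counts, so Wilson 95% intervals and the limit of 3 counts cover counting error only. The study performed the process 3 times, and each run was 1 replicate. Of 24965 rows, 24539 had a symbol and 24646 were in GENCODE release 29, which also gave positions and transcripts. No library pair of a group held identical counts.

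Levels are CPM, the count divided by the library total and scaled. In-screen libraries with at least 1000 detected genes and at most 15% mitochondrial counts were fitted per screen with edgeR 4.0.16 (R 4.3.3; TMM, filterByExpr, quasi-likelihood F-test, Benjamini-Hochberg adjustment over all genes, threshold 0.05), with run as a block and 1 term per drug. Further fits tested drug by screen and, jointly, injection position. DESeq2 1.42.0, other scalings, filters, depth as a covariate and leaving out runs were alternatives, and the scripts were tested on simulated data. Descriptive values and figures used pandas 2.3.3, scipy 1.17.1 and matplotlib 3.10.9. The members and lists were chosen with earlier results of these data known. Named were all members, the member with the smallest p of each drug and screen, the 2 highest genes of each of the 8 lists of related genes (not the marker lists) over in-screen dT libraries, genes of those lists past the threshold for a drug, and the 3 genes most like each member. Some sequences and 1 gene of that last set are not reported here.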

Additional observations from a re-analysis of the deposited data

Results flagged for a closer look

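ENSG00000277105 also reached high levels in libraries left out of the planned fits. The 3 Bio Imatinib_Imatinib libraries, left out for having 438 to 472 detected genes, held 45, 40 and 20 counts of it, or 1482, 1593 and 1118 CPM, with a mean of 1398 ± 248 CPM (SD, n = 3). The Bio DMSO_DMSO libraries had 24.4 to 74.7 CPM. The left-out libraries had a mean of only 24450 total counts, and the dT libraries of the same pair had 75.9 ± 38.2 CPM. With all in-screen libraries fitted as an alternative, the log2 change with YM115 in Bio was 0.18 instead of 1.14. The part of depth in this difference was not tested.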

How the results depend on the processing

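The count of members past the threshold was 0 in all 11 comparisons and stayed 0 under all 112 alternatives. Of 455 alternative fits of a member and term, 5 had an unadjusted p under 0.05, and the smallest adjusted p was 0.199. Without the replicate block the count of members was also 0. A run is 1 performance of the process, which the study treated as a batch. Deviations of same-run libraries had a mean correlation of 0.0244 in dT (2187 genes) and 0.0278 in Bio (924 genes). For libraries of other runs and other pairs it was -0.0122 and -0.0139.

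The ratio of mean CPM in separate controls to in-screen libraries was sensitive to the reference. Against DMSO_DMSO only it was 14.73 (dT) and 11.04 (Bio) for 7SK, 166.7 (Bio) for ENSG00000277105, 0.4918 (dT, reversed) and 3.619 (Bio) for MALAT1 and 9.174 (Bio) for NEAT1. With mitochondrial genes and members out of the denominator it was 6.258 for 7SK in dT. Chosen after seeing the data, passing libraries only gave 38.88 for ENSG00000277105 in Bio, and the single control with at most 15% mitochondrial counts gave 1.951 for NEAT1 in Bio. Leaving out each control in turn gave, in dT and Bio, 4.40 to 5.26 and 2.74 to 3.44 for 7SK, 30.3 to 98.7 and 22.2 to 30.7 for ENSG00000277105, 0.968 to 1.69 and 1.58 to 2.12 for MALAT1, and 1.2 to 4.97 and 4.10 to 7.14 for NEAT1, the MALAT1 value of 0.9676 being that without control 2. The causes were not tested.

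The log2 change of NEAT1 with Trametinib in Bio (0.37) reversed to -0.0352 with DESeq2 size factors, -0.781 with depth as a covariate, -0.114 without run 1 (-0.114 to 0.843 over the runs left out) and -0.0332 with DESeq2 (adjusted p from 0.859 to 0.996). SRSF3 lost its call without run 1 (adjusted p = 0.155), H2AC13 without the filter (0.0788) and in DESeq2 (0.452), and H2BC7 without the filter (0.118). DESeq2 gave no adjusted p for CCNT1. Counts over all genes for Imatinib, Trametinib and YM115 ranged from 5 to 510, 0 to 468 and 14 to 503 in dT (113, 54 and 103 as reported), from 0 to 218, 1 to 182 and 3 to 203 in Bio (41, 34 and 48), and from 0 to 400, 0 to 314 and 6 to 373 for the difference between screens (275, 215 and 310). For position they ranged from 20 to 1432 in dT (420) and 8 to 709 in Bio (446). The number of genes tested changed with the setting, so these counts are not shares. For the drug fits it was 3930 as reported, 19688 without the low-count filter and 2187 with the 50% filter in dT. In Bio it was 1754, 15694 and 924 in the same order. The lowest counts came from the filter that keeps genes detected in 50% of libraries or more, and the Bio position count was also 8 without run 2. Leaving out a run gave 30 to 46, 12 to 21 and 37 to 59 in dT, 19 to 27, 10 to 16 and 14 to 34 in Bio, 122 to 172, 95 to 109 and 125 to 135 for the difference between screens, and 167 to 244 (dT) and 8 to 124 (Bio) for position.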
